A study of Mus musculus with 62 samples.

Results

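The genes described here mark the endothelial cells of brain blood vessels. The set held 10 gene symbols (Cldn5, Flt1, Pecam1, Slco1a4, Slc2a1, Bsg, Itm2a, Abcb1a, Tek and Esam), and its members were the rows of the count data that carry these symbols. Of the 11121 genes counted, 9 were members, and Tek, the angiopoietin receptor, was not analysed here. RNA was sequenced from the nucleus accumbens (NAc) and from the prefrontal cortex (PFC) of wild-type C57BL/6j mice of 15 weeks, male per the study's methods. Control mice (CTR) were not restrained, and the others went through multimodal chronic restraint stress (mCRS). In it a mouse is held daily in a tube under changing conditions. By the study's methods both groups also took behavioral tests, a forced swim among them, and tissue was taken some days after the last stress session. Each of the PFC groups had 15 libraries, and each of the NAc groups 16. The tissue was bulk, so that fewer endothelial cells and less RNA per endothelial cell cannot be told apart.

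Endothelial cells of the brain form the blood-brain barrier. Tight junctions seal the gap between neighbouring cells, transporters carry glucose and other nutrients inwards, and efflux pumps return many drugs and toxins to the blood. Signals from VEGF, angiopoietins and Wnt ligands build and maintain these vessels. Claudin 5, the main claudin of the brain's tight junctions, is known from work on social stress in mice as a gene whose level in the NAc can fall, and whether the members changed after mCRS was the question put to these libraries.

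Libraries held between 945286 and 4857359 counts, and the members together made up 0.0890% of all counts. The ratio of striatal to cortical neuron markers lay between 7.86 and 134 in NAc libraries and between 0.195 and 1.36 in PFC libraries, so every library matched its labelled region. Of the genes counted, 87.1% ± 4.42 had a count in PFC CTR libraries and 82.3% ± 6.22 in PFC mCRS libraries (SD, n = 15 each), against 90.2% ± 7.13 and 88.5% ± 7.43 in the NAc (SD, n = 16 each). In NAc mCRS library 10 the summed choroid plexus markers reached 24152 CPM (counts per 1000000 counts of the library), against a median of 245 CPM in its group. Values without it are given beside some of the results.

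In the NAc, 7 of the 9 members were lower after mCRS, as were 50.7% of all genes tested. The median log2 fold change of the members was -0.52, against -0.006 over all 10141 genes tested. Cldn5 and Itm2a, a membrane protein rich in brain endothelium, had the lowest unadjusted p values, with 0.549 and 0.528 times their CTR levels. None of these differences passed the correction over all genes, since 0 of 9 members had a Benjamini-Hochberg FDR below 0.05 in edgeR's quasi-likelihood test, where 0.00986% of all genes did. At an unadjusted p below 0.05 there were 2 of 9 members, both lower, against 2.04% of all genes in either direction and 1.06% in the lower direction. This count was 0 to 2 with 1 library left out, 0 with the replicate number as a block and 1 with all 62 libraries in one fit. DESeq2's Wald test also called 0 members. In the PFC, 4 members were lower and 4 higher, and 0 of the 8 tested had an FDR below 0.05 or an unadjusted p below 0.05 (background 0% and 3.5%).

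**Figure D1:**
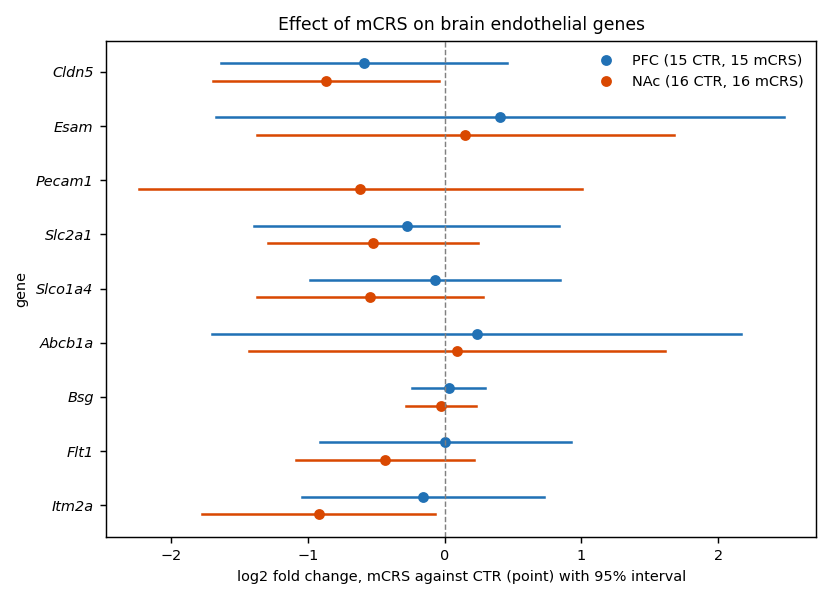
Log2 fold change of each member after mCRS (x axis, points) with its 95% interval (lines) in the PFC (blue, 15 CTR and 15 mCRS libraries) and the NAc (orange, 16 and 16), from edgeR. Only the NAc intervals of Cldn5 and Itm2a lie below 0 as a whole, and Pecam1 has no PFC value because its counts there were too low for the test.

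Cldn5 (ENSMUSG00000041378, chromosome 16, 18776847 to 18778262, plus strand, GRCm38) encodes claudin 5. It is shown first with the sequence before its start, together with that of Itm2a, because these were the members of lowest p in the NAc. The sequences are the 250 bases upstream of the RefSeq start (GRCm38.p6), given 5′ to 3′ on the strand of the gene, at chr16:18776597-18776846 (plus strand) and chrX:107403361-107403610 (minus strand). Capitals mark matches, on either strand, to a GC box (GGGCGG) or a CAAT box (CCAAT).
Cldn5: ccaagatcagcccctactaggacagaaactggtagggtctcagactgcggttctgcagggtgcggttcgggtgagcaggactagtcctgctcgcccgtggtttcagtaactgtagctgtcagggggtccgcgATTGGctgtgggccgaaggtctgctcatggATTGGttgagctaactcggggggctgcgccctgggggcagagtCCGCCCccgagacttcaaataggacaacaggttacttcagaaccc
Itm2a: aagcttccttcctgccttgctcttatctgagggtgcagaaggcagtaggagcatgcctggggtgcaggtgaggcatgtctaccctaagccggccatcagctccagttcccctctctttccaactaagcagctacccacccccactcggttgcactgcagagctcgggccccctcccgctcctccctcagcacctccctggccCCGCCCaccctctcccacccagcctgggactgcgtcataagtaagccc
A promoter entry was found for 6 members, Abcb1a, Cldn5, Flt1, Itm2a, Slc2a1 and Slco1a4. The Abcb1a window (chr5:8566841-8567090, plus strand) lies far upstream of the gene as annotated in GENCODE, which starts at 8660077. Of the 6 members, 4 (Cldn5, Flt1, Itm2a and Slc2a1) held a GC box, against 32.7% of all 32851 promoters of this length. A CAAT box was in 2, Cldn5 and Slco1a4, against 33.8% of all. The ETS sequence CCGGAA was in 0 of the 6 windows (12.03% of all), and other forms of the ETS motif were not searched for. A SOX motif (AACAAT) was in Slco1a4 (9.42%) and a forkhead motif (TGTTTA) in Abcb1a and Slco1a4 (12.03%). A TCF/LEF motif (CTTTGA) was in Abcb1a (13.8%) and TATAAA in Flt1 (12.4%). These matches describe letters in the windows and no binding was measured.

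In the NAc, Cldn5 lay between 10.04 and 174 CPM in CTR libraries, with a median of 60.9 CPM, and between 0 and 87.6 CPM in mCRS libraries, with a median of 26.3 CPM. The groups overlapped, and 3 of 16 mCRS libraries lay above the CTR median. The single mCRS library with no Cldn5 count, library 6, allowed a level of up to 2.81 CPM (3 counts; such limits cover counting error only, as copies made by PCR were not told apart). The log2 fold change was -0.87 (SE 0.41, 95% interval -1.69 to -0.04, unadjusted p = 0.0401, FDR = 0.99995, edgeR). On mean log2 CPM, a scale that weights libraries equally, the level was 5.90 ± 0.87 in CTR and 4.74 ± 1.63 in mCRS libraries (SD, n = 16 each), a difference of -1.16 (unadjusted p = 0.00817, two-sided permutation test, adjusted p = 0.796 over 10141 genes). In this mean, library 6, which had the fewest counts of its group (1009783), stood at -0.36 log2 CPM, the value of a count of 0. The permutation test was not run without it. In edgeR the log2 fold change without library 6 was -0.77 (p = 0.0422). With each library left out in turn, the log2 fold change stayed between -1.003 and -0.71, and its p was below 0.05 in 21 of 32 settings; it was highest, 0.101, without NAc CTR library 12. Without NAc mCRS library 10, the log2 fold change was -0.83 (p = 0.0506), and with all 62 libraries in one fit it was -0.87 (p = 0.0564).

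In the PFC, Cldn5 lay between 10.5 and 144 CPM (median 35.3 CPM) in CTR libraries and between 1.68 and 120 CPM (median 29.7 CPM) in mCRS libraries. The groups overlapped almost wholly, with 6 of 15 mCRS libraries above the CTR median. The log2 fold change was -0.59 (SE 0.52, 95% interval -1.64 to 0.46, unadjusted p = 0.263). The effect of mCRS on Cldn5 was not shown to differ between the regions, since the interaction of region and treatment was -0.28 on the log2 scale (SE 0.64, 95% interval -1.56 to 0.99, p = 0.661).

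Esam (ENSMUSG00000001946, chromosome 9) and Pecam1 (ENSMUSG00000020717, chromosome 11), the other members of the cell junction, encode adhesion molecules by which endothelial cells hold to each other. Both were sparse. Esam had no count in 18 of 62 libraries and Pecam1 in 11, and such a library allowed levels of up to 0.892 to 2.81 CPM and 0.978 to 2.87 CPM. In the NAc, Pecam1 had a median of 14.5 CPM in CTR and 4.73 CPM in mCRS libraries, and its log2 fold change of -0.62 had a 95% interval from -2.24 to 1.01 (p = 0.451). Esam had medians of 18.3 and 20.0 CPM there, with a log2 fold change of 0.15 (95% interval -1.37 to 1.67, p = 0.845), or -0.03 without NAc mCRS library 10. In the PFC, the log2 fold change of Esam was 0.40 (95% interval -1.67 to 2.48, p = 0.698). Pecam1 had no test in the PFC, where its median was 9.22 CPM in CTR and 4.06 CPM in mCRS libraries. For these genes even a fold change of the size seen for Cldn5 lay inside the intervals.

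**Figure D2:**
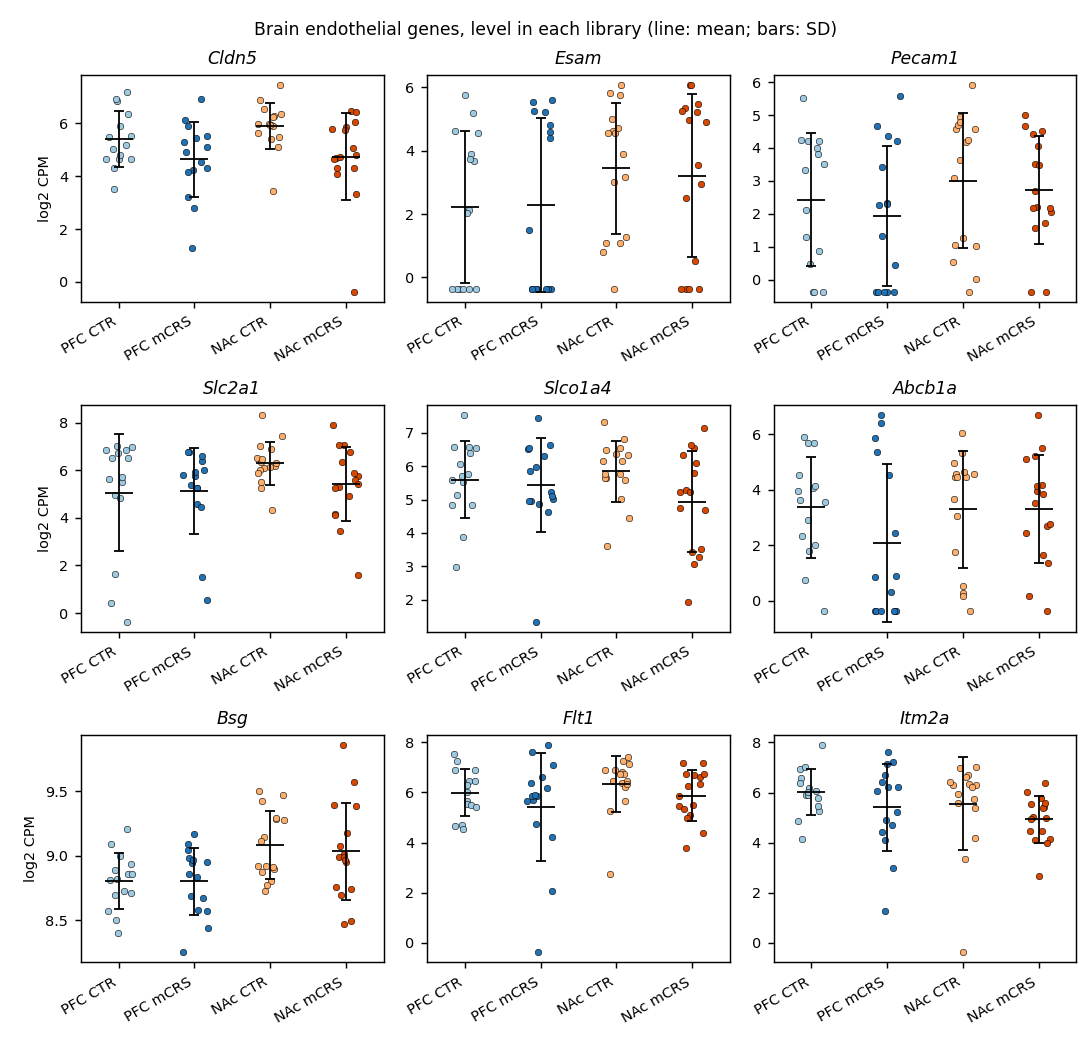
Level of each member in every library, as log2 CPM (y axes, each on its own scale), for PFC CTR and mCRS (15 libraries each) and NAc CTR and mCRS (16 each). Points are libraries, lines the mean and bars the SD; the lowest row of points in Esam, Pecam1 and Abcb1a holds libraries with no count, and the groups of every member overlap.

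None of the transporters and their partners passed the test in either region. Slc2a1 (ENSMUSG00000028645, chromosome 4) encodes GLUT1, which brings glucose across the barrier, and 2 genes annotated on the opposite strand, Gm12867 and Gm12868, overlap it. In the NAc its median was 75.4 CPM in CTR and 44.99 CPM in mCRS libraries, with 5 of 16 mCRS libraries above the CTR median. The log2 fold change was -0.52 (SE 0.38, p = 0.178), and -0.27 without NAc CTR library 2, which held the highest level at 317 CPM. That library had the fewest counts of all 62 libraries (945286). Without NAc mCRS library 8 the log2 fold change was -0.80 (p = 0.0389). In the PFC the log2 fold change of Slc2a1 was -0.28 (SE 0.56, p = 0.619).

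Slco1a4 (ENSMUSG00000030237, chromosome 6), an organic anion transporter, had NAc medians of 62.1 CPM in CTR and 36.7 CPM in mCRS libraries, again with 5 of 16 mCRS libraries above the CTR median. Its log2 fold change was -0.55 (SE 0.41, p = 0.191, edgeR). On mean log2 CPM the difference was -0.92 (unadjusted p = 0.0472, permutation test, adjusted p = 0.956). In the PFC the log2 fold change was -0.07 (SE 0.45, p = 0.875). Its CTR and mCRS libraries thus overlapped in both regions.

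Abcb1a (ENSMUSG00000040584, chromosome 5) encodes P-glycoprotein, the chief efflux pump of the barrier. Of the windows of 70 bases in the last 1000 bases of its transcripts, 11.3% have a copy in its neighbour Abcb1b, so reads of those windows could not be placed uniquely, and Gm42684 and Gm42686 overlap it, so its values are uncertain. It had no count in 9 libraries, 6 of them PFC mCRS libraries, against 1 of 15 PFC CTR libraries. Its log2 fold change after mCRS was 0.23 in the PFC (SE 0.96, p = 0.810) and 0.09 in the NAc (SE 0.76, p = 0.907). In the PFC this direction depended on the scale, since the difference in mean log2 CPM was -1.29 (p = 0.147, permutation test). The PFC mCRS group held both the highest level of the region, 101 CPM, and 6 of its 7 libraries at 0.

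Bsg (ENSMUSG00000023175, chromosome 10) encodes basigin, a partner protein of monocarboxylate transporters that neurons and glia express as well. It was the member measured with the least spread. In the NAc it lay between 423 and 726 CPM in CTR libraries (median 520 CPM) and between 355 and 928 CPM in mCRS libraries (median 509 CPM). In the PFC it lay between 337 and 591 CPM (median 452 CPM) and between 304 and 574 CPM (median 463 CPM). The log2 fold change after mCRS was -0.03 (95% interval -0.28 to 0.23) in the NAc and 0.03 (95% interval -0.24 to 0.29) in the PFC. Without NAc mCRS library 10 the NAc value was -0.09 (p = 0.452). For Bsg these intervals leave out changes beyond 0.822 or 1.23 times the CTR level. Its counts made up much of the summed level of the members, so sums are given with and without it.

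Flt1 (ENSMUSG00000029648, chromosome 5) encodes VEGF receptor 1, which binds VEGF and limits its signal. In the NAc its median was 97.2 CPM in CTR libraries, with a range of 6.01 to 170 CPM, and 66.1 CPM in mCRS libraries, with a range of 12.8 to 144 CPM. The groups overlapped, with a log2 fold change of -0.44 (SE 0.32, 95% interval -1.09 to 0.21, p = 0.184). In the PFC its log2 fold change was 0.01 (SE 0.46, p = 0.991).

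Itm2a (ENSMUSG00000031239, chromosome X) had the lowest p of the members in the NAc. It lay between 0 and 130 CPM in CTR libraries, with a median of 75.5 CPM, and between 5.62 and 82.8 CPM in mCRS libraries, with a median of 30.97 CPM. Only 1 of 16 mCRS libraries lay above the CTR median. However, the lowest library, NAc CTR library 2 with no count (up to 2.87 CPM), was a control. It had the fewest counts of all 62 libraries (945286). The log2 fold change was -0.92 (SE 0.43, 95% interval -1.77 to -0.07, unadjusted p = 0.0344, FDR = 0.99995). The permutation test of mean log2 CPM gave -0.61 (p = 0.261) and was not run without this library. In edgeR the log2 fold change without it was -1.02 (p = 0.00907, the lowest of the 32 settings). Leaving out each library in turn kept the value between -1.06 and -0.83, with p below 0.05 in 28 of 32 settings and a highest p of 0.0671. The value of -1.06 was that without NAc mCRS library 10 (p = 0.0180, edgeR). In the PFC, Itm2a had medians of 64.2 CPM in CTR and 66.7 CPM in mCRS libraries and a log2 fold change of -0.16 (SE 0.44, p = 0.718). The interaction of region and treatment, -0.75 (95% interval -1.97 to 0.47, p = 0.225), did not pass the threshold.

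The summed level of the 9 members was 998 CPM ± 155 in NAc CTR and 849 CPM ± 208 in NAc mCRS libraries (SD, n = 16 each). Without Bsg it was 447 CPM ± 128 and 307 CPM ± 98.6. In the PFC the sums were 825 CPM ± 96.8 in CTR and 788 CPM ± 132 in mCRS libraries (SD, n = 15 each), or 374 CPM ± 63.4 and 335 CPM ± 98.3 without Bsg. These sums describe the libraries and were not tested. In the interaction 0 of 9 members had an FDR below 0.05 (0.00907% of all genes) or a p below 0.05 (3.09% of all genes), and all 9 values lay below 0, as did 48.9% of all genes.

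Between the regions no member passed the threshold with edgeR. In CTR libraries 8 of 9 members were higher in the NAc (median log2 fold change 0.33), while 48.9% of all genes were lower there. Of the members, 0 of 9 had an FDR below 0.05, where 6.32% of all genes did. Bsg was the member of lowest p, with a log2 fold change of 0.29 (SE 0.12, unadjusted p = 0.0201, FDR = 0.187), and with DESeq2 it passed the threshold (0.34, FDR = 0.0117). With the replicate number as a block, 0 of 9 members, Bsg included, had an unadjusted p below 0.05. In mCRS libraries, which the first contrast did not use, Bsg was 0.25 higher in the NAc on the log2 scale (SE 0.14, p = 0.0834), or 0.18 without NAc mCRS library 10 (p = 0.205). There 4 of 8 members were higher and 4 lower, and 0 had an FDR below 0.05 (6.31% of all genes). Itm2a had the lowest p there, with a log2 fold change of -0.95 (SE 0.49, p = 0.0571), against -0.20 (SE 0.39) in CTR libraries. Its p was below 0.05 without NAc mCRS library 10 (-1.09, p = 0.0345), with DESeq2 (p = 0.0369) and with all 62 libraries in one fit (p = 0.0334), and was 0.452 with the replicate block.

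**Figure D3:**
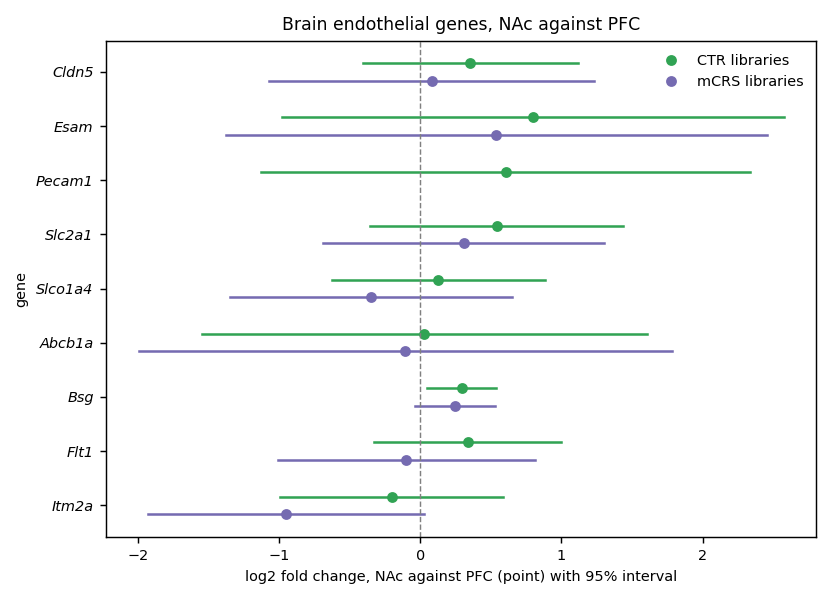
Log2 fold change of each member in the NAc against the PFC (x axis, points) with its 95% interval (lines), in CTR libraries (green) and mCRS libraries (purple), from edgeR. The interval of Bsg in CTR libraries, 0.05 to 0.54, is the only one that leaves out 0, and its FDR of 0.187 missed the threshold.

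Other genes of the same vessels were read in the NAc from lists chosen by function, and 0 of them had an FDR below 0.05. Over all genes tested in the NAc, 50.7% were lower after mCRS. Among the other junction and adhesion genes 9 of 13 were higher after mCRS (median log2 fold change 0.28), and among the other barrier transport genes 11 of 15 were higher, with a median of 0.21. Of 15 further genes rich in brain endothelium 9 were higher (median 0.19), and the lowest p was that of Vwf, the von Willebrand factor that endothelial cells store and release, at 2.32 (SE 0.93, p = 0.0153, FDR = 0.99995). Of the VEGF and angiopoietin genes 7 of 10 were lower (median -0.22), of the Wnt genes 6 of 10 (median -0.15), of the endothelial transcription factors 3 of 6 (median -0.07), and of the activation genes 3 of 4 (median -0.44). The genes of lowest p in the other lists were Eng (1.03, p = 0.144), Cav2 (1.53, p = 0.102), Apln (-0.96, p = 0.222), Ctnnb1 (-0.26, p = 0.103), Klf2 (1.14, p = 0.202) and Vcam1 (-0.98, p = 0.162), each given as a log2 fold change. In the PFC 0 genes of these lists had an FDR below 0.05, and the list medians lay between -0.36 (activation) and 0.13 (Wnt).

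Markers of pericytes, smooth muscle, fibroblasts, red blood cells and choroid plexus were read in the same libraries. The summed pericyte markers ranged from 109 to 323 CPM in NAc CTR and from 144 to 414 CPM in NAc mCRS libraries, and 0 of 5 tested markers had an FDR below 0.05. In the PFC these sums were 234 CPM ± 71.2 in CTR and 171 CPM ± 67.0 in mCRS libraries (SD, n = 15 each). Smooth muscle markers were higher in 3 of 5 genes in the NAc, fibroblast markers in 5 of 5 (median 1.28) and red blood cell genes in 4 of 4 (median 0.27), again with 0 called. Of all genes tested in the NAc, 50.7% were lower. The choroid plexus marker Ttr was called at 5.38 (FDR = 0.0339), a call that was lost without NAc mCRS library 10. The part of these cells in the levels of the members was not tested.

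**Figure D4:**
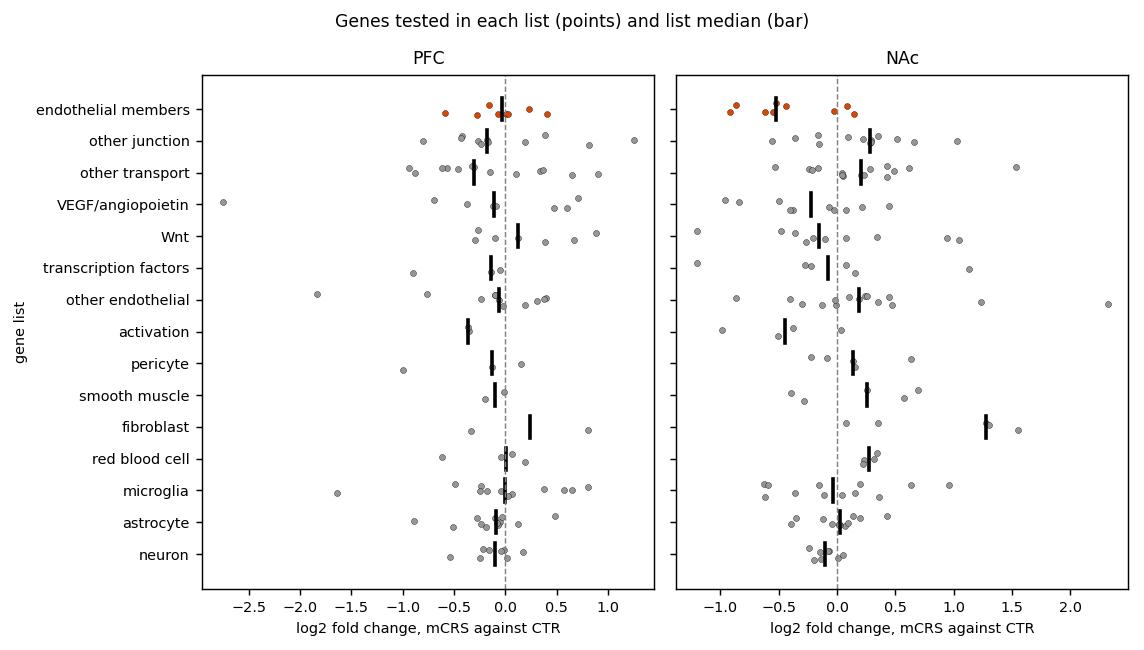
Log2 fold changes after mCRS (x axes) in the PFC (left) and the NAc (right) for the genes tested in each list (points; members in orange, other lists in grey), with the list median as a bar. In the NAc the median of the members is -0.52. Those of the other junction, transport and endothelial lists are 0.28, 0.21 and 0.19. Those of the activation, VEGF and angiopoietin, Wnt and transcription factor lists are -0.44, -0.22, -0.15 and -0.07.

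Between the regions, some genes of the other endothelial lists passed the threshold in CTR libraries, as did 6.32% of all genes. Cd34, a surface sialomucin of endothelium, was lower in the NAc by -2.13 on the log2 scale (FDR = 0.00690). Epas1, a hypoxia-inducible transcription factor, and Nrp2, a co-receptor for VEGF, were higher, by 0.87 (FDR = 0.0234) and 2.68 (FDR = 0.000870). In mCRS libraries Cd34 (-2.25, FDR = 0.0277) and Nrp2 (2.08, FDR = 0.0196) also passed, while Epas1 had a log2 fold change of 0.73 (FDR = 0.303). In CTR libraries the calls were 1 of 12 junction genes, 0 of 14 transport genes, 1 of 9 VEGF and angiopoietin genes, 0 of 9 Wnt genes, 1 of 4 transcription factors, 2 of 13 other endothelial genes and 0 of 4 activation genes, against 6.32% of all genes. In mCRS libraries they were 1 of 14 junction genes, 1 of 14 transport genes, 3 of 9 VEGF and angiopoietin genes, 0 of 9 Wnt genes, 0 of 4 transcription factors, 0 of 12 other endothelial genes and 0 of 4 activation genes, against 6.31% of all genes.

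How far the members varied together from library to library was read from the correlations between them. With group means subtracted, the 36 pairs of members had a median Pearson r of 0.09 in the NAc (32 libraries; 21 pairs positive) and -0.05 in the PFC (30 libraries; 14 pairs positive), and 0 pairs in either region had an adjusted p below 0.05. In the NAc the highest r was that of Bsg and Esam, 0.52 (permutation p = 0.00392, adjusted p = 0.141; Spearman's rho 0.44, p = 0.0147, adjusted p = 0.528), and 0.46 without the 2 libraries farthest from the median. In the PFC the strongest was that of Flt1 and Abcb1a, -0.56 (permutation p = 0.00242, adjusted p = 0.0871; rho -0.53, p = 0.00365, adjusted p = 0.131), and -0.43 without 2 libraries. The r of Cldn5 with the other members lay between -0.17 and 0.20 in the NAc and between -0.22 and 0.23 in the PFC. Between libraries of a region the variation beyond counting, as edgeR's biological coefficient of variation, had a median of 0.777 over the members and 0.924 over all genes in the NAc, and of 0.880 and 1.01 in the PFC. The lowest value was that of Bsg, 0.316 in the NAc and 0.319 in the PFC.

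**Figure D5:**
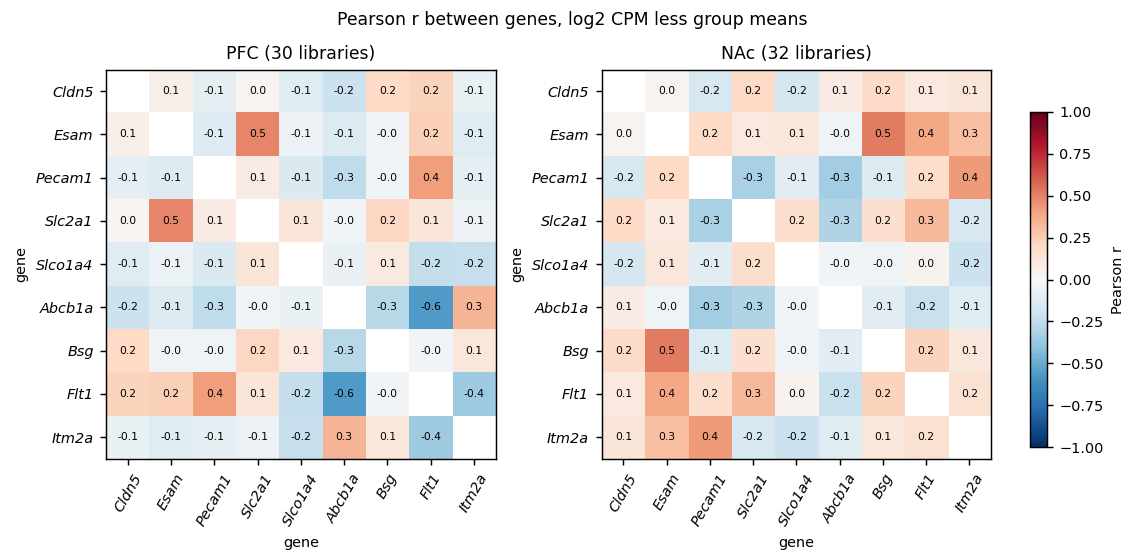
Pearson r between members across the 30 PFC libraries (left) and the 32 NAc libraries (right), on log2 CPM less group means (colour scale from -1 to 1, value in each cell). Most cells are pale, with a median r of -0.05 in the PFC and 0.09 in the NAc.

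No member was among the 5 genes whose levels were most like those of Cldn5 over all 62 libraries. These were Stim2 (r = 0.69), Slc25a39 (0.60), Tenm1 (0.58), Hectd4 (0.57) and P4hb (0.57), out of 9332 genes with at least 10 counts in 50% of the libraries. The p of Stim2, 1e-05, was the smallest that the permutations can give. With 100000 resamples and 9332 genes, a gene alone at this p has an adjusted p of 0.0933, whatever its r. Stim2 therefore could not pass the threshold, and its adjusted p of 0.0933 does not decide whether this relation holds. Its rho was 0.50 (p = 2e-05, adjusted p = 0.187), and r was 0.51 without the 2 libraries farthest from the median. For the other 4 genes r fell to between 0.23 and 0.33 without those libraries, so that these relations rest on them. Among the members, Bsg (0.19) and Flt1 (0.17) had the highest r with Cldn5, and without the same 2 libraries these were -0.04 and 0.19.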

How the data were processed

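RNA of 62 PFC and NAc libraries was measured by BRB-seq, a 3′ method with barcoded oligo-dT primers, so counts are per transcript end and are not divided by length. The deposited values are raw counts per gene: the authors mapped reads with STAR to GRCm38 (mm10) and counted uniquely mapped reads with HTSeq (0.9.1 in the submitters' processing notes), with no mention of molecular identifiers. The methods also state that some PFC samples of poor quality were removed. All count columns were used, and coordinates and symbols are those of GENCODE for GRCm38 (11120 of 11121 IDs matched a symbol).

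Groups follow the labels. By the study's methods both regions were dissected from each animal, so PFC and NAc libraries share mice, but no source says which. All libraries were treated as independent, and p values measure the spread between them. The comparisons of the regions and the interaction thus leave this pairing out. Each comparison was fitted over all genes with edgeR 4.0.16 (R 4.3.3; TMM, filterByExpr by group, quasi-likelihood F test, Benjamini-Hochberg FDR below 0.05), within a region, within a treatment, or over all 62 libraries for the interaction of region and treatment. CPM and log2 CPM (prior count 2) use TMM over all libraries. Mean log2 CPM and correlations were tested by two-sided permutation (100000 resamples). Library totals ran from 945286 to 4857359, and the limit for a count of 0 was taken as 3 counts. No 2 libraries held the same values. The script was tested on simulated data.

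The alternatives were DESeq2 1.42.0, RLE normalization, mtDNA genes left out of library sizes, no low-count filter, a filter of at least 10 counts in 50% of libraries, 3 covariates (log2 library size, share of genes detected, library number up to 8 or above), the replicate number as a block, all 62 libraries in one fit, each library left out in turn and, added after values were seen, the permutation test. Genes named are the 10 members, at most 3 genes of lowest p from each other list, and the 5 genes most like Cldn5. The members and lists were chosen with earlier results of these data known. Behavior, respiration and metabolite data were left out.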

Additional observations from a re-analysis of the deposited data

How the results depend on the processing

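The count of members at an FDR below 0.05 was 0 in each comparison under the alternatives run for it, except for NAc against PFC in CTR libraries with DESeq2, where it was 1 (Bsg). Libraries were left out in turn for the comparisons of mCRS with CTR, while for the interaction and for NAc against PFC in mCRS libraries 1 was left out (NAc mCRS library 10), and for NAc against PFC in CTR libraries none was. The permutation test covered the comparisons of mCRS with CTR. In the PFC the counts over all genes were 1 with no filter on low counts, 1 with the replicate block and 5 with all 62 libraries in one fit, against 0. In the NAc they were 0 with DESeq2, with each of the 3 covariates and with the replicate block, and 2 with no filter or with all 62 libraries, against 1. The interaction gave 0 with the stricter filter and with the replicate block, against 1. NAc against PFC gave 578 to 866 genes in CTR libraries, against 628, and 467 to 860 in mCRS libraries, against 596, with the share of genes detected lowest and DESeq2 highest. With libraries left out the counts for mCRS against CTR ranged from 0 to 2 in the PFC and from 0 to 1 in the NAc, where the 0 included the fit without NAc mCRS library 10. The causes were not tested.

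In the NAc, Cldn5 and Itm2a kept their direction under each alternative. With the replicate number as a block their log2 fold changes were -0.98 (p = 0.0691) and -0.85 (p = 0.135). Of the same-numbered pairs compared, 0 correlated above 0.1. How far libraries of the same mouse would correlate is not known, so this does not settle whether the numbers pair the libraries.

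Some log2 fold changes reversed, none of which had passed a threshold. In the PFC, Flt1 was -0.00098 with no filter, -0.39 with the replicate block and -0.57 on mean log2 CPM, and Abcb1a was -1.33 with log2 library size, -1.70 with the share of genes detected, -2.64 with the replicate block and -1.29 on mean log2 CPM. Esam was -0.068 with the split by number and -0.75 with the replicate block, and on mean log2 CPM Slc2a1 was 0.090 and Bsg -0.0016. In the NAc, Abcb1a was -0.0020 with the share of genes detected, and Esam was -0.17 with the replicate block and -0.23 on mean log2 CPM. In the interaction, Abcb1a was 0.19 and Esam 0.048 given the share of genes detected, and with the replicate block Cldn5 was 0.019, Pecam1 0.52 and Abcb1a 1.34. For NAc against PFC, Abcb1a was -0.21 in CTR libraries with the replicate block. In mCRS libraries Cldn5 was -0.25 and Abcb1a 0.27 with log2 library size, Cldn5 -0.53 and Abcb1a 0.95 with the share of genes detected, and Flt1 0.24 and Abcb1a 2.63 with the replicate block. With 1 library left out, PFC values ranged from -0.37 to 0.057 for Itm2a, -0.24 to 0.16 for Flt1, -0.25 to 0.48 for Abcb1a, -0.29 to 0.16 for Slco1a4 and -0.0055 to 0.060 for Bsg, and NAc values from -0.038 to 0.37 for Esam, -0.094 to 0.010 for Bsg and -0.39 to 0.37 for Abcb1a.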
